A study of Mus musculus with 17 samples.

Results

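The genes described here encode subunits of calcium, sodium and potassium channels. They were chosen by name alone: every gene whose symbol starts with Cacna, Cacnb, Cacng, Kcn or Scn followed by a number or letter, without pseudogenes and antisense genes. They were 99 of the 28600 genes in the count tables, with 90 in the table of model 1, 74 in that of model 2 and 65 in both. All cells were erythroid blasts of mice that carry the Spi1 transgene (TgSpi1), cultured in the presence of erythropoietin (EPO), with 1 library per mouse. In model 1 (strain DBA2JxFVB/N), blasts came from 4 preleukaemic mice with intact Fanca (TgSpi1FA+/+; WP138, WP445, WP451 and WP479), from 3 preleukaemic mice with Fanca deleted (TgSpi1FA-/-; KP40, KP77 and KP224) and from 3 that had become leukaemic without Fanca (KL26, KL28 and KL39). Preleukaemic blasts of this model need EPO to grow, whereas leukaemic ones grow without it and form tumours. The paper reports a Kit mutation in blasts of KL26 and an Nras mutation in those of KL28 and KL39. Whether these mutations bear on the channel genes was not tested. In model 2 (strain DBA2J) all mice were TgSpi1FA+/+, with 4 preleukaemic (WP633, WP663, WP812 and WP837) and 3 leukaemic (WL601, WL606 and WL921), whose leukaemia arose after serial blood transfusions. In these names the first letter gives Fanca (W for intact, K for deleted), the second the stage (P or L) and the number is that of the mouse. Every group therefore carries the transgene, and no group is normal erythroid tissue. Spi1 was at 3.88 CPM in KL39 (CPM are counts scaled to the library size) and at 103 CPM or more in every other library.

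Voltage-gated channels are assembled from a pore subunit, which opens when the membrane potential changes, and accessory subunits, which bring the pore to the membrane and tune its opening. Calcium channels of this kind couple electrical activity to contraction and transmitter release, sodium channels carry the upstroke of the action potential, and potassium channels bring the membrane back to rest. They are best known from neurons and muscle. Red cells and their precursors do not fire action potentials. They use the calcium-activated potassium channel KCNN4, the Gardos channel, which lets potassium leave the cell when calcium enters and so controls cell volume.

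The name rule takes in more than voltage-gated channels. It held 10 pore and 13 accessory genes of calcium channels, 8 pore genes and 1 accessory gene of sodium channels, 27 pore and 11 accessory genes of voltage-gated potassium channels, 10 genes of calcium- or sodium-activated potassium channels, 8 inward rectifiers and 11 two-pore potassium channels. Inward rectifiers, two-pore channels and small calcium-activated channels such as KCNN4 are not opened by voltage. Nor were the most abundant genes ectopic to the leukaemic stage: Kcnn4, Kcnk5, Kcnk6 and Cacna1c were above 1 CPM in every preleukaemic library of both models. The genes are therefore called channel genes here.

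The libraries of both models held 29964576 to 40514205 counts each. Fanca was between 0.615 and 2.30 CPM in the 3 TgSpi1FA-/- preleukaemic libraries, between 0.959 and 1.67 CPM in the 3 leukaemic ones and at least 28.1 CPM in every TgSpi1FA+/+ library. The libraries of WP445 and WP479 stood apart as almost alike: a chi-square of their counts per degree of freedom was 8.53, against 114 to 372 for the other pairs within groups of model 1. It was above the 1 that sampling noise gives, which does not show that the libraries came from separate mice. Both were kept as separate samples, as their titles name them, and results that rest on them were also computed with their counts averaged. For KP40, KP77 and KP224 the sample titles say preleukaemic, whereas the column names of the table and the source field say leukaemic, and the titles were followed. With 1 culture per mouse, the p-values measure the spread between mice together with that between cultures. In bulk libraries, fewer cells that express a gene and less RNA per cell cannot be told apart.

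Most channel genes were silent or close to it. Of the 99 genes, 62 were under 1 CPM in every library, 37 reached 1 CPM in at least 1 library and 14 exceeded 10 CPM in at least 1. Sodium channels were the most silent family, with 7 of 8 pore genes never at 1 CPM. The number of channel genes at 1 CPM or more was 9, 9, 14 and 15 in the 4 TgSpi1FA+/+ preleukaemic libraries of model 1 and 8, 11 and 16 in the TgSpi1FA-/- preleukaemic ones. It was 15, 25 and 21 in the leukaemic libraries KL26, KL28 and KL39, so that KL26 alone lay within the range of the preleukaemic libraries of its model. In model 2 the numbers were 10 to 13 in preleukaemic and 7 to 10 in leukaemic libraries. All genes at 1 CPM or more also numbered more in the leukaemic libraries of model 1 (11002 to 11244) than in the TgSpi1FA-/- preleukaemic ones (10327 to 10426), and whether the larger number of channel genes follows from that was not tested. The summed level of all channel genes did not follow their number. It was 296 ± 23.9 CPM (SD, n = 4) in TgSpi1FA+/+ preleukaemic, 323 ± 26.2 (n = 3) in TgSpi1FA-/- preleukaemic and 266 ± 84.7 (n = 3) in leukaemic libraries of model 1, and 174 ± 24.3 (n = 4) and 91.1 ± 30.4 (n = 3) in preleukaemic and leukaemic libraries of model 2.

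**Figure D1:**
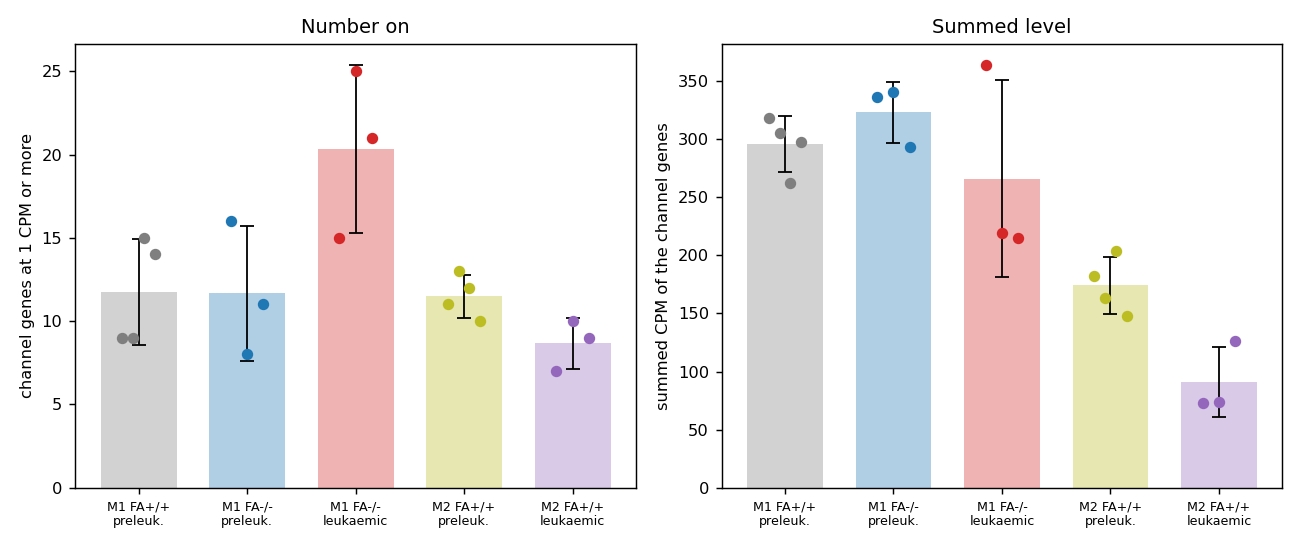
Number of channel genes at 1 CPM or more (left) and their summed CPM (right) in each library. Points are libraries, bars are group means and error bars are SD. KL28 and KL39 hold 25 and 21 genes, more than any other library, while the mean summed level is lowest in the leukaemic libraries of model 2.

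What made up the sum differed between stages, also per length. Per kilobase of exon, Kcnn4 had a mean of 29.9 CPM in TgSpi1FA-/- preleukaemic libraries, against 12.7 CPM for Kcnk5, whereas in leukaemic libraries of model 1 Kcnk5 was highest at 12.0 CPM. The shares that follow are of summed CPM, without length. In all 7 preleukaemic libraries of model 1 the leading gene was Kcnn4, and 4 genes carried between 82.3% and 91.4% of the sum. In KL26 Kcnab2 led and the share of the 4 leading genes was 73.8%, whereas in KL28 and KL39 it was 50.8% and 51.6%.

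**Figure D2:**
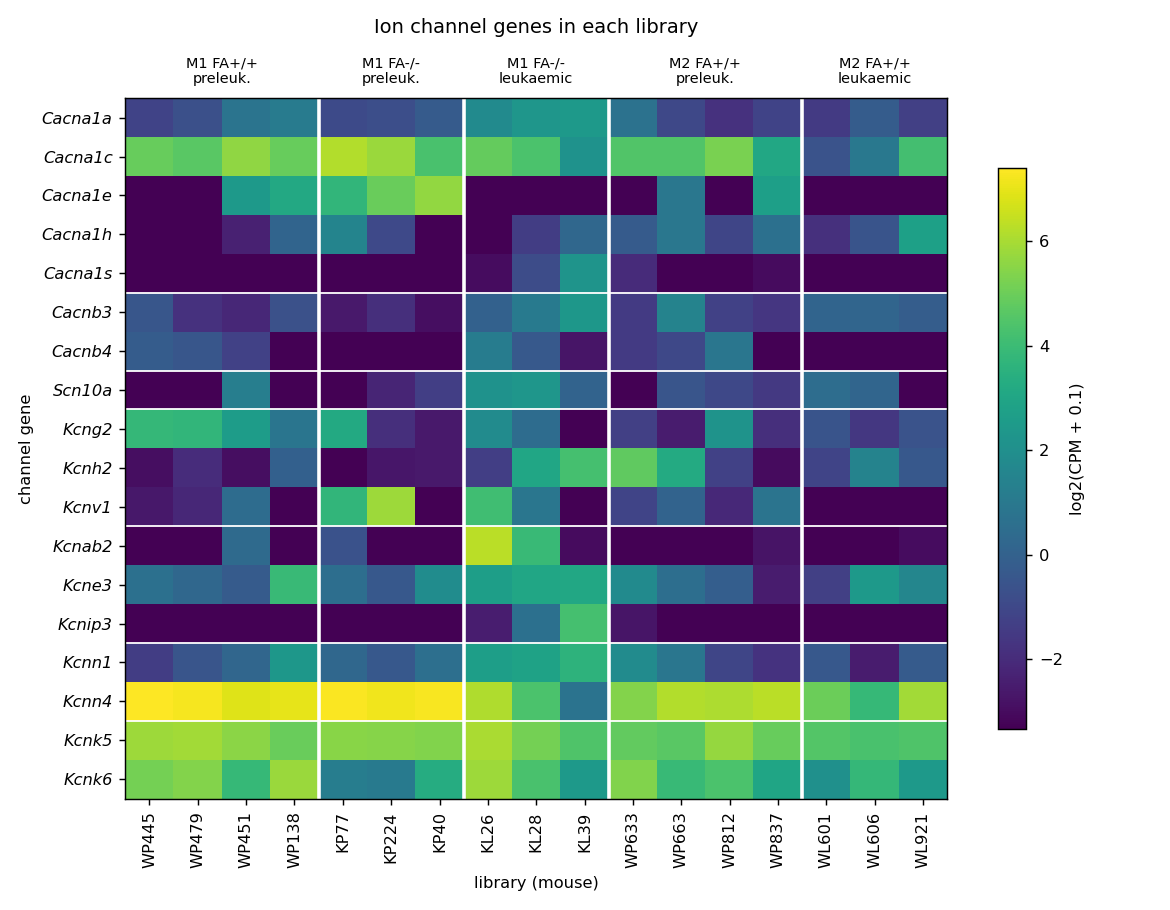
Level of 18 channel genes (vertical axis, grouped by role from calcium channels at the top to two-pore potassium channels at the bottom) in each of the 17 libraries (horizontal axis, grouped by model and stage), as log2(CPM + 0.1). Kcnn4 and Kcnk5 are high in nearly all libraries, and the leukaemic libraries KL26, KL28 and KL39 of model 1 differ from each other in Kcnab2, Kcnip3 and Kcnn4.

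The first comparison asked which channel genes change between the preleukaemic and the leukaemic stage without FANCA. In edgeR's quasi-likelihood test with Benjamini-Hochberg adjustment over all genes, 4 of 29 channel genes that passed the filter on low counts were called, meaning an adjusted p below 0.05 together with a fold change of 1.5 or more in either direction. This is 13.8%, against 13.3% of all 13393 genes tested. The share is near that of all genes. Higher in leukaemic cells were 3, Cacna1a, Cacnb3 and Kcnh2, where 6.82% of all genes were called higher. The other, Cacna1e, was lower, where 6.49% were called lower. The median log2 fold change of the 29 genes was 1.38, beside -0.0012 over all genes tested. A gene that passed the filter only through the group where it was high had to differ, so that the median and the counts describe the tested genes and support nothing further.

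Cacna1a (ENSMUSG00000034656, chromosome 8 from 84388440 to 84640246, GRCm38) encodes the pore of the P/Q-type calcium channel, which triggers transmitter release at nerve endings. Its levels were 3.43, 4.91 and 5.48 CPM in KL26, KL28 and KL39, against 0.744, 0.427 and 0.497 CPM in KP40, KP77 and KP224. All 3 leukaemic libraries were above all 3 preleukaemic ones, and above the 4 TgSpi1FA+/+ preleukaemic libraries, which ran between 0.343 and 2.10 CPM. The means were 4.60 ± 1.06 CPM (SD, n = 3) and 0.556 ± 0.167 CPM (SD, n = 3), a log2 fold change of 3.04 (SE 0.71, adjusted p = 0.0274). Per kilobase of exon this was 0.403 CPM.

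Cacnb3 (ENSMUSG00000003352, chromosome 15 from 98630840 to 98644529) encodes a cytoplasmic beta subunit, which carries calcium channel pores to the membrane. It was at 0.904, 1.97 and 4.97 CPM in KL26, KL28 and KL39 and at 0.0323, 0.0657 and 0.175 CPM in KP40, KP77 and KP224. The groups did not overlap, and the lowest leukaemic library (KL26) was also above the TgSpi1FA+/+ preleukaemic range of model 1, whose highest value was 0.624 CPM. The log2 fold change was 4.77 (SE 0.98, adjusted p = 0.0188), the smallest adjusted p of any channel gene in this comparison.

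Kcnh2 (ENSMUSG00000038319, chromosome 5 from 24319589 to 24351604) encodes the hERG potassium channel, which repolarizes the heart and is also found in leukaemic cell lines. In leukaemic cells it was at 0.301, 7.92 and 18.7 CPM in KL26, KL28 and KL39, and in preleukaemic cells at 0.0647, 0 and 0.0585 CPM in KP40, KP77 and KP224. These groups did not overlap, but KL26 was 0.301 CPM and KL28 and KL39 carried the difference. Of the TgSpi1FA+/+ preleukaemic libraries of model 1, WP138 was above KL26 at 0.880 CPM, and the next highest was 0.159 CPM. The log2 fold change was 7.64 (SE 1.95, adjusted p = 0.0341). In model 2 the preleukaemic library WP633 held 26.9 CPM, more than any leukaemic library of either model.

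Cacna1e (ENSMUSG00000004110, chromosome 1 from 154390731 to 154884501) encodes the pore of the R-type calcium channel of neurons and endocrine cells. It was at 50.4, 13.2 and 30.7 CPM in KP40, KP77 and KP224, and no count was found in any of the 3 leukaemic libraries. With 3 counts per library taken as the floor, it was at least 401-fold lower (adjusted p = 0.0475, edgeR). In TgSpi1FA+/+ preleukaemic libraries it was 8.60, 0, 5.22 and 0 CPM in WP138, WP445, WP451 and WP479. A second set of counts for these mice, given below, held 121, 7.01, 39.6 and 0.207 CPM in WP138, WP445, WP451 and WP479. In model 2 it was 0, 1.77, 0 and 6.43 CPM in WP633, WP663, WP812 and WP837 before leukaemia and 0 in all 3 leukaemic libraries.

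**Figure D3:**
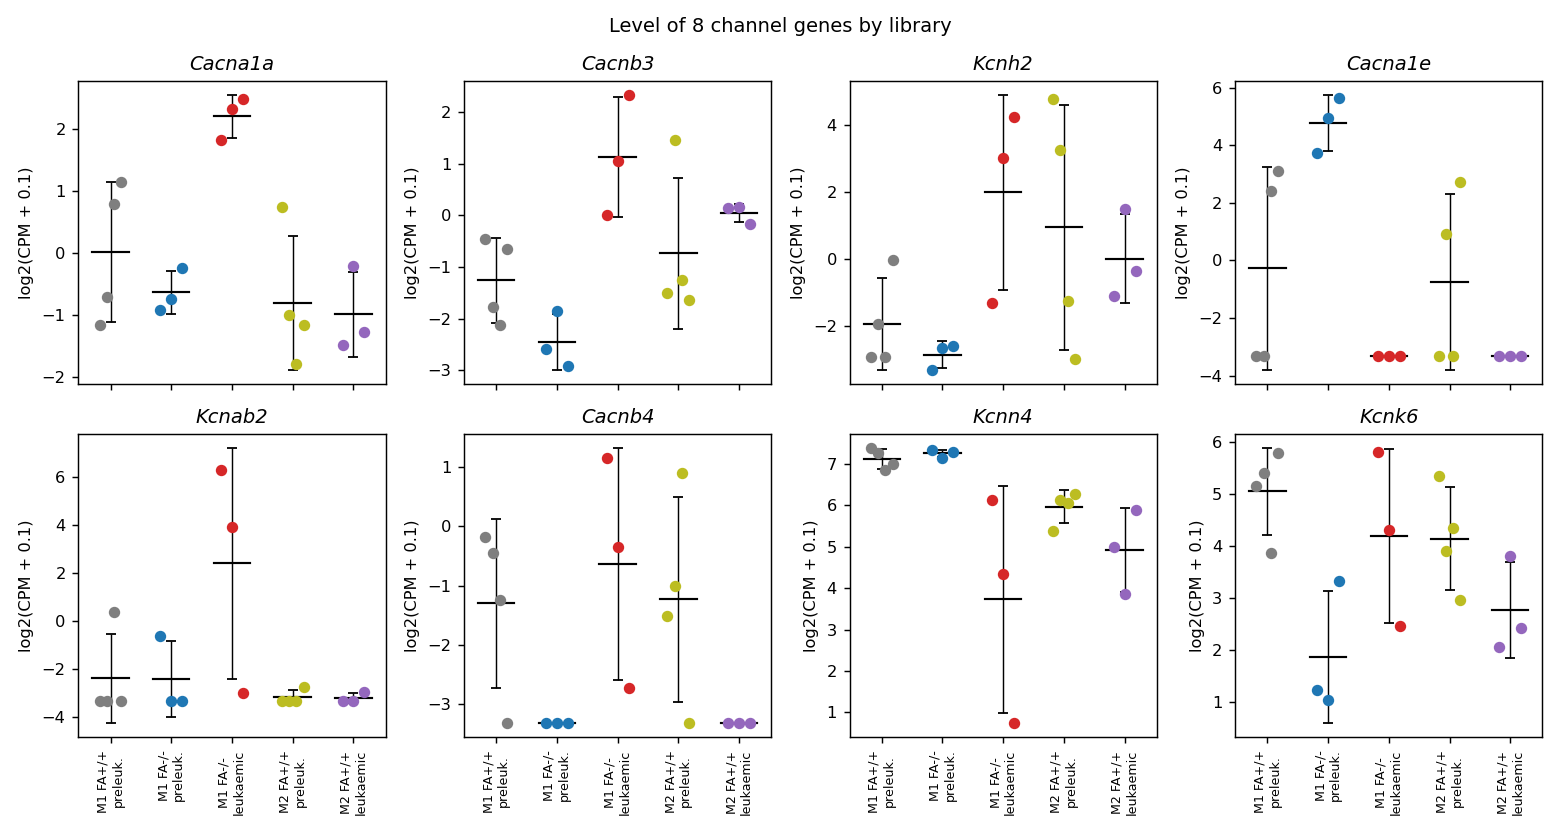
Level of 8 channel genes in each library as log2(CPM + 0.1). Points are libraries, horizontal lines are group means and error bars are SD. Cacna1a and Cacnb3 are higher in the 3 leukaemic libraries of model 1 than in the 3 TgSpi1FA-/- preleukaemic ones, Cacna1e is 0 in all leukaemic libraries of both models, and Kcnn4 spreads widely in the leukaemic libraries of model 1.

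Leaving out 1 library at a time, Cacna1e lost its call in all 6 fits, Cacna1a and Kcnh2 in 5 and Cacnb3 in 3 (without KL28, KP40 or KP77). Over these and the other alternatives, the log2 fold change of Cacna1a stayed between 2.89 and 3.30 and that of Kcnh2 between 6.52 and 8.21, while the adjusted p ran between 0.000103 and 0.0938 and between 1.24e-05 and 0.106. DESeq2, run on the same counts, called 14 of 41 channel genes (10 higher, 4 lower), where it called 19.8% of all genes, 12.1% higher and 7.71% lower, and the 4 edgeR calls were among the 14. By the unadjusted p, 12 of the 29 genes were under 0.05, beside 32.4% of all genes.

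The promoters of Cacna1e, Cacnb3 and Kcnh2 are shown because these genes were called. The table used held no entry for Cacna1a. RefSeq promoters (GRCm38.p6, 250 bases before to 50 bases after the start) were found for 72 of the 99 genes. Capitals mark matches of 4 short motifs, searched on both strands. AGATAA is a motif of GATA factors. GAGGAA is a core of sites of PU.1, the factor that Spi1 encodes. TTCAGCACC lies in the left part of the RE1 site, which the repressor REST binds. GGACAG lies in its right part. The windows lie at chr1:154725871-154726170 (minus strand) for Cacna1e, chr15:98632078-98632377 (plus strand) for Cacnb3 and chr5:24329542-24329841 (minus strand) for Kcnh2. All 3 lie at starts inside the gene as GENCODE M21 bounds it, and counts per gene do not say which start was used.
Cacna1e: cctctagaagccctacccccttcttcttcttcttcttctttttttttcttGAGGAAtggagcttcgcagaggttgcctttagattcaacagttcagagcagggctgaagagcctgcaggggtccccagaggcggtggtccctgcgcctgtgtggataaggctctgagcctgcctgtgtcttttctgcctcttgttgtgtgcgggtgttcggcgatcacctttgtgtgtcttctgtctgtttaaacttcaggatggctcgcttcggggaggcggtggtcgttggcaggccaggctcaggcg
Cacnb3: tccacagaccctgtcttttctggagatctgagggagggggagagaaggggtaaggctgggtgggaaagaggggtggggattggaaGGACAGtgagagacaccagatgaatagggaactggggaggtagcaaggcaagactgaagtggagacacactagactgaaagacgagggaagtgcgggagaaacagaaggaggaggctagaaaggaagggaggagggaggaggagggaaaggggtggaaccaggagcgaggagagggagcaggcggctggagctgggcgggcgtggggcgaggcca
Kcnh2: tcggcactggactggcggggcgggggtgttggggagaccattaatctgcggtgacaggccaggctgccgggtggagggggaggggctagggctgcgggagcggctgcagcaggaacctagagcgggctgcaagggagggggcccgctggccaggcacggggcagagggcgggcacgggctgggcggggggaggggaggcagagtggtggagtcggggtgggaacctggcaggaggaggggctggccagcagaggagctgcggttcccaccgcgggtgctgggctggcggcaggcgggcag
Cacna1e held 1 match of GAGGAA, which 28.3% of all 32841 promoters also hold. Cacnb3 held 1 match of GGACAG, which 22.2% of all promoters hold, in this one of its 2 listed starts. The Kcnh2 window held none of the 4 motifs. Over the 104 promoters of channel genes, GAGGAA was in 25% and GGACAG in 23.1%, AGATAA in 2.88% against 11.2% of all promoters, and TTCAGCACC in 0.962% against 0.371%. The channel promoters had a median of 9.5 CG dinucleotides, against 7 over all. A match of letters is a description and says nothing of binding in these cells.

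Among the remaining calcium channel genes, no change passed the test in edgeR, and DESeq2 called Cacnb4. Cacna1c, the L-type pore of heart and smooth muscle, had the highest mean CPM per kilobase of exon of any calcium channel pore gene (2.29 in TgSpi1FA-/- preleukaemic libraries). It was 19.8, 70.5 and 55.4 CPM in KP40, KP77 and KP224 before and 28.8, 20.1 and 4.26 CPM in KL26, KL28 and KL39 in leukaemia. The groups overlapped, and the log2 fold change was -1.46 (SE 0.66, adjusted p = 0.161). Cacnb4, another beta subunit, was 0 in all 3 TgSpi1FA-/- preleukaemic libraries and 2.14, 0.690 and 0.0507 CPM in KL26, KL28 and KL39. The groups did not overlap, but KL39 held only 2 counts, and the adjusted p was 0.0673 by edgeR and 0.00214 by DESeq2. Cacna1s, the L-type pore of skeletal muscle, was 0 in all preleukaemic libraries of model 1 and 0.0274, 0.460 and 4.62 CPM in KL26, KL28 and KL39. It was not tested by edgeR, since it did not pass the filter. Cacna1h, a T-type pore, overlapped between stages (between 0 and 2.79 CPM and between 0 and 1.09 CPM, adjusted p = 0.717).

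Scn10a, the pore of a sodium channel of pain-sensing neurons, was the only sodium channel pore gene to reach 1 CPM in any library. It was at 4.25, 4.80 and 0.964 CPM in KL26, KL28 and KL39 in leukaemic cells and 0.291, 0 and 0.117 CPM in KP40, KP77 and KP224 before. The groups did not overlap, and the change did not pass the test, with a log2 fold change of 4.58 (SE 2.24, adjusted p = 0.190).

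Kcnv1 and Kcng2 encode silent subunits, which form channels only together with other pore subunits. Kcnv1 was 0, 13.0 and 56.4 CPM in KP40, KP77 and KP224 before and 16.99, 1.74 and 0 CPM in KL26, KL28 and KL39 in leukaemia. Kcng2 was 0.0647, 9.06 and 0.175 CPM in KP40, KP77 and KP224 and 3.45, 1.28 and 0 CPM in KL26, KL28 and KL39. Both overlapped, and neither passed the test (adjusted p = 0.615 and 0.752).

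In the accessory genes of potassium channels, the 3 leukaemic mice differed widely. Kcnab2, a cytoplasmic beta subunit, was 77.6, 15.1 and 0.0254 CPM in KL26, KL28 and KL39, and 0, 0.558 and 0 CPM in KP40, KP77 and KP224 before leukaemia. Kcnip3, a calcium-binding protein that modulates A-type channels and can also repress transcription, ran the other way with 0.0822, 1.43 and 18.5 CPM in KL26, KL28 and KL39, and no count in any preleukaemic library of model 1. Kcnab2 was thus high in KL26 and near 0 in KL39, and Kcnip3 the reverse. Kcnab2 overlapped between the groups (adjusted p = 0.124), and Kcnip3 did not pass the filter, so that edgeR gave no test, while DESeq2 called it (adjusted p = 0.0437). Kcne3, a small single-span subunit, was more even at 6.36, 8.02 and 8.50 CPM in KL26, KL28 and KL39, against 3.56, 1.35 and 0.673 CPM in KP40, KP77 and KP224 (adjusted p = 0.256). None of the 4 potassium channel accessory genes tested was called.

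Kcnn4, the Gardos channel of red cells, was at 156, 160.2 and 142 CPM in KP40, KP77 and KP224 before leukaemia and, in leukaemia, at 69.6, 20.1 and 1.57 CPM in KL26, KL28 and KL39. The 3 leukaemic libraries were all below the preleukaemic ones. The log2 fold change was -2.33 (SE 0.92, adjusted p = 0.115) by edgeR, and the adjusted p was 0.0396 by DESeq2 and 0.0249 by edgeR without KL26. Over all alternatives of edgeR and DESeq2 the adjusted p of Kcnn4 ran between 0.0249 and 0.279. Kcnn1, a calcium-activated channel of neurons, was 6.25, 7.13 and 12.0 CPM in KL26, KL28 and KL39 and 1.39, 1.08 and 0.673 CPM in KP40, KP77 and KP224, without overlap. Its adjusted p was 0.0696 by edgeR, 0.0258 by edgeR fitted to the 2 groups alone and 0.00507 by DESeq2, which thus called it higher. Over all alternatives it reached 0.183 (edgeR without KP224). Kcnk5 and Kcnk6 encode background potassium channels of the two-pore family, which set the resting potential. Kcnk5 was between 41.2 and 44.1 CPM before and between 21.7 and 65.5 CPM in leukaemia, with a log2 fold change of -0.07 (SE 0.37, adjusted p = 0.919). Kcnk6 was 9.93, 2.23 and 1.96 CPM in KP40, KP77 and KP224 and 55.6, 19.7 and 5.43 CPM in KL26, KL28 and KL39, and the groups overlapped. Its adjusted p was 0.0963 by edgeR and 0.0188 by DESeq2, which called it higher.

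The next genes lie outside the rule for named genes and were picked after their values were seen, as examples of genes on in some leukaemic mice. Kcnj5, an inward rectifier of the heart, was 0.0274, 2.71 and 8.93 CPM in KL26, KL28 and KL39 and 0 in the 3 TgSpi1FA-/- preleukaemic libraries. Kcna4, a pore of A-type channels, was 0, 1.25 and 6.62 CPM in KL26, KL28 and KL39, and 0.0970, 0.394 and 2.51 CPM in KP40, KP77 and KP224 before. Cacna2d2, an alpha2delta subunit of calcium channels, was 0.438, 1.30 and 3.07 CPM in KL26, KL28 and KL39, and 0, 0.558 and 0 CPM in KP40, KP77 and KP224 before. Both overlapped between the stages. Kcnc4, another A-type pore, was 0, 3.48 and 0 CPM in KL26, KL28 and KL39 and 0 in all preleukaemic libraries of model 1. All 4 were lowest or absent in KL26, and Kcnc4 was on in KL28 alone. Kcnd1, a pore of A-type channels, was on in every library of both stages, between 1.75 and 5.91 CPM and between 2.20 and 3.40 CPM.

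As a switch, a gene was counted as gained where all leukaemic libraries held at least 1 CPM and all preleukaemic ones less, and lost in the reverse case. In model 1, 2 of 90 channel genes were gained, Cacna1a among them, or 2.22%, where 1.38% of all genes were. Cacna1e alone was lost, 1.11% against 0.254%. The gained genes depended on the limit. At 0.5 CPM they were Cacnb3 and Scn10a, and Cacna1a was no longer among them. Of all 26029 genes, 424 were gained at that limit, against 360 at 1 CPM. At 2 CPM, 3 channel genes were gained, Cacna1a and Kcnn1 among them, where 310 of all genes were. Cacna1e was the one lost channel gene at both limits, where 68 and 75 of all genes were lost. In model 2 no channel gene of 70 with a count was gained or lost, where 0.0717% and 0.0506% of all genes were. Without KL26, 7 channel genes were gained in model 1, among them Cacna1a, Cacna2d2, Cacnb3, Kcnh2, Kcnip3 and Kcnj5. The number over all genes also rose, to 713 of 26029 from 360 with all libraries. Without KL39, 4 channel genes were gained, among them Cacna1a, Kcnab2 and Scn10a, where 449 of all genes were. By the looser measure of no overlap between the groups, 10 of the 29 tested genes were higher and 2 lower in leukaemia, beside 19.4% and 19.3% of all genes tested. The 2 lower were Cacna1e and Kcnn4.

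The second comparison asked what the loss of FANCA changes before leukaemia. None of 29 tested channel genes was called by edgeR between TgSpi1FA-/- and TgSpi1FA+/+ preleukaemic libraries, where 0.00747% of all genes were called, and 3 had an unadjusted p under 0.05, beside 8.65% of all genes. DESeq2 called 1 of 32, Kcnk6, which was lower, where it called 1.87% of all genes and 1.62% lower. Without overlap, Cacna1e was higher and Kcnk6 lower, beside 4.26% and 4.27% of all genes tested. A second set of counts, given below and scaled otherwise, held more Cacna1e in these TgSpi1FA+/+ mice. It was 121, 7.01, 39.6 and 0.207 CPM in WP138, WP445, WP451 and WP479. With no TgSpi1FA-/- preleukaemic mouse in that set, the separation could not be checked there. Kcnk6 was 55.5, 35.2, 14.4 and 42.0 CPM in WP138, WP445, WP451 and WP479 with FANCA and 9.93, 2.23 and 1.96 CPM in KP40, KP77 and KP224 without. All 3 TgSpi1FA-/- libraries were below all 4 TgSpi1FA+/+ ones, with a log2 fold change of -2.97 (SE 0.92, adjusted p = 0.535) by edgeR and an adjusted p of 0.0172 by DESeq2. Cacnb4 was 0, 0.780, 0.320 and 0.635 CPM in WP138, WP445, WP451 and WP479 with FANCA and 0 in all 3 libraries without it, and the groups overlapped at 0 (adjusted p = 0.535). Kcnv1 was 0, 0.0624, 1.28 and 0.127 CPM in WP138, WP445, WP451 and WP479 with FANCA (adjusted p = 0.557). With WP445 and WP479 averaged, no gene was called either. This comparison shares its TgSpi1FA-/- libraries with the first one.

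The third comparison followed the leukaemic stage with FANCA present, in model 2. No channel gene of 22 tested was called by edgeR, where 0% of all 12970 genes were, 1 had an unadjusted p under 0.05, beside 19.9% of all genes, and the smallest adjusted p of a channel gene was 0.162. DESeq2 called 2 of 26, where it called 3.45% of all genes and 2.34% lower. These were Kcnv1 and Cacnb4, both lower. No tested gene was higher without overlap, beside 9.65% of all genes, and 2 were lower, Kcnk5 and Kcnv1, beside 10.4%. Kcnv1 was 0.353, 0.9496, 0.133 and 1.66 CPM in WP633, WP663, WP812 and WP837 before and 0 in all 3 leukaemic libraries, at least 9.74-fold lower against the floor of 3 counts. Cacnb4 was 0.252, 0.400, 1.76 and 0 CPM in WP633, WP663, WP812 and WP837 before and 0 in leukaemia.

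The genes called higher in model 1 did not pass the test here. Cacna1a was 1.56, 0.400, 0.187 and 0.346 CPM in WP633, WP663, WP812 and WP837 before and 0.257, 0.762 and 0.312 CPM in WL601, WL606 and WL921 in leukaemia, with overlap. Cacnb3 was between 0.795 and 1.02 CPM in leukaemia, against 0.252, 2.65, 0.320 and 0.223 CPM in WP633, WP663, WP812 and WP837 before. The groups overlapped through WP663 alone, and WP633, WP812 and WP837 were below every leukaemic library. The abundant genes did not pass the test either. Kcnk5 had a log2 fold change of -0.65 (SE 0.30, adjusted p = 0.279) without overlap of the groups, and Kcnn4 was 41.9, 70.2, 67.0 and 77.5 CPM in WP633, WP663, WP812 and WP837 before and 31.8, 14.5 and 59.5 CPM in WL601, WL606 and WL921 in leukaemia (adjusted p = 0.332).

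**Figure D4:**
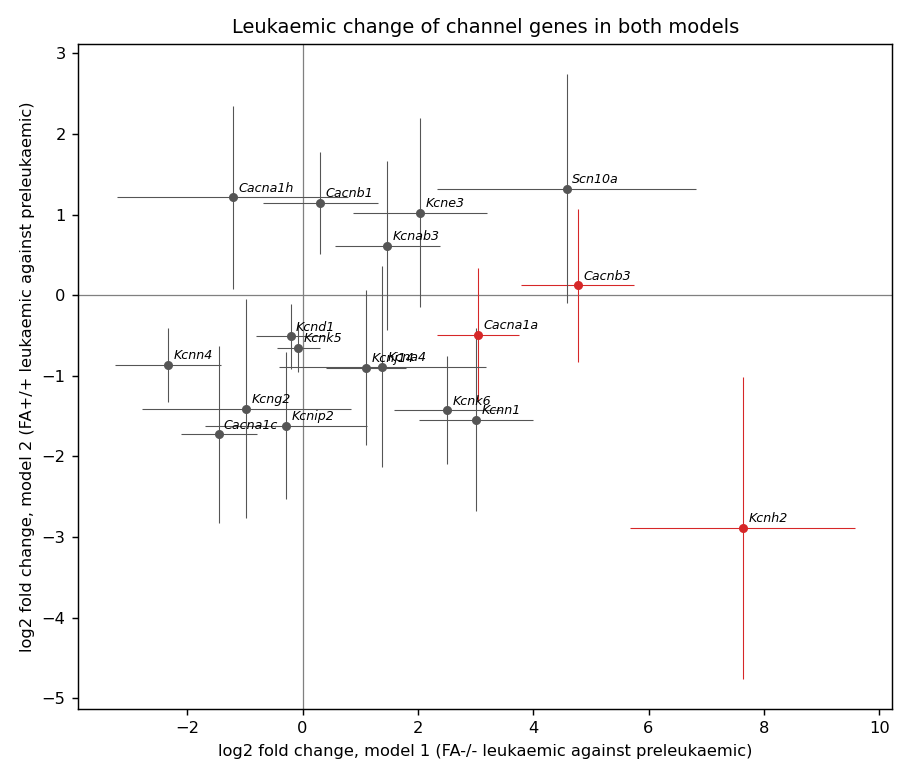
Log2 fold change from preleukaemic to leukaemic cells in model 1 (horizontal axis) and model 2 (vertical axis) for 18 of the channel genes tested in both with a count in every group. Error bars are SE, and genes called in model 1 are red. Kcnh2 lies far to the right and below 0, whereas Kcnn4 and Cacna1c are below 0 on both axes.

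A contrast of all 17 libraries then took the leukaemic log2 fold change in model 1 minus that in model 2. The difference keeps its sign and does not compare sizes, so that opposite changes also give a large value. Of 32 channel genes tested, 1 was called, or 3.13%, where 4.61% of all genes were. Of all genes, 2.76% were called with a more positive and 1.85% with a more negative change in model 1. An unadjusted p under 0.05 was found for 10 channel genes, all with a more positive change in model 1, beside 25.8% of all genes. The call was Cacnb4 (adjusted p = 0.0444). It has no count in the TgSpi1FA-/- preleukaemic libraries and none in the leukaemic libraries of model 2, so that its fitted fold depends on how zeros are treated and is not given. With WP445 and WP479 averaged, or without the filter, it lost its call, as it did in all fits that left out 1 library of either comparison, except those without WP812 or WP837. DESeq2 called 10 of 37, all with a more positive change in model 1. It called 13.5% of all genes, 9.22% with a more positive and 4.32% with a more negative change. Kcnh2 differed by 10.47 (SE 2.96, adjusted p = 0.0553) on the log2 scale, which did not pass the test in edgeR and was among the calls of DESeq2 (adjusted p = 0.000197). Strain, genotype and library protocol (400 ng of RNA and 8 min of fragmentation in model 1, 300 ng and 2 min in model 2) change together with the model and cannot be told apart.

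Other channels and calcium entry genes, among them CLCN chloride channels, ORAI and STIM proteins and inositol trisphosphate receptors, were listed beside the members. Of 39 such genes, 25 were tested in the first comparison, with a median log2 fold change of -0.07. Called were 2 higher (Clcn5 and Ryr1) and 5 lower (Clcn4, Piezo1, Itpr2, Stim1 and Clcn7). Over all genes tested, 13.3% were called, 6.82% higher and 6.49% lower. Of 13 genes of the REST complex and other repressors of neuronal genes, 1 was called, Rcor2, which was higher in leukaemia. It was 47.5, 117 and 142 CPM in KL26, KL28 and KL39 against 6.31, 3.05 and 0.556 in KP40, KP77 and KP224. In WP138, WP445, WP451 and WP479 it was 44.6, 9.64, 5.03 and 7.33 CPM, so that WP138 came close to KL26. Rest itself was between 60.7 and 74.3 CPM in leukaemia and between 73.6 and 102 before, and was not called.

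Markers of some other cells differed between the preleukaemic and leukaemic TgSpi1FA-/- libraries of model 1. Some TgSpi1FA+/+ preleukaemic libraries of this model reached the leukaemic sums, as given below. The erythroid markers were present in all groups, summed to between 2616 and 4813 CPM in leukaemic and 5820 and 7118 CPM in TgSpi1FA-/- preleukaemic libraries, and Klf1 and Ank1 fell. No other of the 11 was called, where 6.49% of all genes were called lower and 6.82% higher. Of 16 neuron markers, 10 were in the table and 5 were tested, of which 1, Dlg4, was called higher. The sum of the 10 was between 35.7 and 75.6 CPM in leukaemic and between 9.24 and 18.9 CPM in TgSpi1FA-/- preleukaemic libraries. Map2, Chga and Gad1 were at 0 in the latter. Dlg4 alone was 27.3, 32.1 and 55.5 CPM in KL26, KL28 and KL39, and 7.99, 9.16 and 6.73 CPM in KP40, KP77 and KP224. It was 27.1 CPM in WP451, close to KL26, and 14.5, 10.7 and 9.61 CPM in WP138, WP445 and WP479. Of 10 muscle markers, 7 were in the table and only 2 (Des and Tnni3) were tested, and both were called higher. Their sum was 0.712, 16.3 and 121 CPM in KL26, KL28 and KL39, against 0.0292 to 0.162 before. Of 6 megakaryocyte markers, 5 were tested, and Vwf and Itga2b were called higher. They summed to between 172 and 276 CPM in leukaemic and 45.1 and 60.2 CPM in TgSpi1FA-/- preleukaemic libraries. Mast cell markers (0.330 to 11.3 CPM in leukaemic and 2.36 to 32.0 CPM in TgSpi1FA-/- preleukaemic libraries), macrophage markers (2.505 to 4.19 and 1.94 to 3.84 CPM) and lymphoid markers (0.110 to 0.153 and 0 to 0.0657 CPM) had no call. Of the endothelial and stromal markers (9.70 to 36.1 and 10.5 to 277 CPM) Kdr was called higher. Only 4 mast cell, 2 macrophage, 0 lymphoid and 2 endothelial and stromal markers were tested. Spi1 itself was 629.9, 219.7 and 3.88 CPM in KL26, KL28 and KL39, against 670 to 781 before leukaemia. Among the 3 leukaemic libraries of model 1, KL39 had the lowest Spi1 and the highest muscle markers. Among these it was also highest in Cacna1s, Kcnip3, Kcnh2 and Cacnb3. Kcnh2 was higher still in WP633 of model 2 (26.9 against 18.7 CPM), where Spi1 was 215 CPM. The part of these values in the channel results was not tested.

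A second table of counts for 7 mice of model 1 was deposited separately. It was scaled here by total counts alone, unlike the first, and holds no TgSpi1FA-/- preleukaemic mouse. In it Cacna1e was 0.146, 0.114 and 0 CPM in KL26, KL28 and KL39, but 121 in WP138, which held 8.60 in the first table. In WP445, WP451 and WP479 it was 7.01, 39.6 and 0.207 CPM, where the first held 0, 5.22 and 0. Cacna1a was 1.18, 2.35 and 2.03 in leukaemia and 2.23, 0.355, 4.15 and 0.588 in WP138, WP445, WP451 and WP479, with overlap. Cacnb3 was 1.56, 3.24 and 2.59 in leukaemia and 0.278 to 0.936 in the 4 TgSpi1FA+/+ preleukaemic libraries, without overlap. Kcnh2 was 0.0350, 4.26 and 13.0 in leukaemia and 6.29, 0, 0 and 0.103 before, with WP138 above KL26 and KL28. Cacna1a and Kcnh2 thus overlapped between these groups and Cacnb3 did not. Kcnab2 was 108 CPM in WP445, where the first table held no count. The profile of WP445 in the second table correlated best with WP451 of the first (Pearson's r across genes, which are not independent, of 0.936 against 0.922 with WP445 itself), and that of WP479 with WP445 of the first (0.941 against 0.939 with WP479 itself). The other 5 libraries correlated best with their own number.

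The expressed genes next to Cacna1a, Ccdc130 and Ier2, had adjusted p of 0.34 and 0.628, and those next to Cacnb3, Adcy6 and Ddx23, 0.718 and 0.325. Those next to Kcnh2, Nupl2 and Nos3, had 0.895 and 0.324, and those next to Cacna1e, Glul and Gm9530, 0.389 and 0.654. Both tested neighbours of Cacna1s, Tmem9 (log2 fold change 2.10) and Kif21b (5.996), were called higher, as were Chd5 next to Kcnab2 (3.43) and Gm5430 next to Cacna1h (1.49). The other tested neighbours of the 18 named genes reported here were not called. Of all genes tested in this comparison, 13.3% were called. Reads of Cacna1c overlap those of Dcp1b on the other strand, which was at 11.2 CPM in leukaemic and 14.6 CPM in TgSpi1FA-/- preleukaemic cells, and whether counting used the strand that the library kit marks is not given in the sources used here, so that shared reads cannot be told apart.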

How the data were processed

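RNA-seq libraries (poly-A RNA, stranded kit) of 17 mice were analysed. The authors deposited raw counts per gene. The submitters' processing notes name bcl2fastq 2.17.1.14, STAR 2.5.3a, HTSeq 0.6.1p1 and mm10, and the strand setting is not given in the sources used here. CPM of model 1 and model 2 were computed here from these deposited counts with TMM-scaled library sizes. A second deposited table of counts for 7 of the mice of model 1 served as a side check, with CPM from total counts without TMM. Another file that repeats the counts of model 2 was left out.

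All genes of a table were filtered by group with filterByExpr and fitted with edgeR 4.0.16 (R 4.3.3; glmQLFit and glmQLFTest), with 3 groups in model 1, 2 in model 2 and 17 libraries over shared genes for the difference between models. An adjusted p with no tool named is edgeR's, adjusted by Benjamini-Hochberg over all genes tested. Calls needed an adjusted p below 0.05 and a fold change of 1.5 or more. The alternatives were DESeq2 1.42.0, DESeq2 size factors, no filter, only the groups compared, WP445 and WP479 averaged, other CPM limits and leaving out each library. A gene without counts in a group was set to 3 counts per library for a bound, which covers counting error only. The fit was tested on simulated data.

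The genes and lists (other channels, repressors of neuronal genes and markers of erythroid, neuron, muscle, megakaryocyte, mast, macrophage, lymphoid, endothelial and stromal cells) were chosen with earlier results of these data known. Named channel genes were those called in any test, those gained or lost, those with a mean of at least 5 CPM in a group, calcium and sodium channel pores at 1 CPM or more in any library, and genes at 10 CPM or more in 1 library of a group and under 1 CPM in the others. This gave 21 genes, of which 3 are not reported here. Gene positions are from GENCODE M21.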

Additional observations from a re-analysis of the deposited data

Results flagged for a closer look

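In groups of 4 libraries, single libraries stood apart from the other 3 for 12 genes, in 13 of 34 groups tested by the gap of the extreme library to its nearest neighbour relative to the range. Chance alone gives about 5% of such groups where values are normally spread. The 13 cannot be set against that share, since in 4 of them the other 3 libraries had no count, so that any count set the fourth apart. In the TgSpi1FA+/+ preleukaemic group of model 1, WP138 stood apart with 0.994 CPM of Cacna1h (next highest 0.0961), 15.3 CPM of Kcne3 (1.47), 0.880 CPM of Kcnh2 (0.159) and 5.03 CPM of Kcnn1 (1.06). In the same group, WP451 stood apart with 1.22 CPM of Kcnab2 and 2.31 CPM of Scn10a, where the other 3 libraries had none, and with 1.28 CPM of Kcnv1 (next highest 0.127).

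In the preleukaemic group of model 2, WP633 stood apart with 1.56 CPM of Cacna1a (next highest 0.400), 0.151 CPM of Cacna1s (0.0247) and 0.0504 CPM of Kcnip3 (others 0). There WP663 held 2.65 CPM of Cacnb3 (0.320), WP812 held 4.37 CPM of Kcng2 (0.303) and WP837 held 0.0495 CPM of Kcnab2 (others 0). The values of Cacna1s, Kcnip3 and Kcnab2 in model 2 rest on few counts.

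Between the models, the leukaemic change of Cacnb4 differed by the interaction test of edgeR (adjusted p = 0.0444), with 0 CPM in the TgSpi1FA-/- preleukaemic and in the TgSpi1FA+/+ leukaemic libraries of model 2.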

How the results depend on the processing

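By DESeq2, 14 channel genes were called between leukaemic and preleukaemic TgSpi1FA-/- cells, 1 between the genotypes before leukaemia, 2 in model 2 and 10 for the difference between models, in place of 4, 0, 0 and 1 by edgeR. Leaving out 1 library gave 0 to 6 calls in the first comparison, with none without KL28 or KP40 and 6 without KL26, and 0 to 4 for the difference between models (4 without WP812). With WP445 and WP479 averaged, or without the filter, the difference between models had 0 calls. Leaving out 1 library, 2 to 7 channel genes were gained in model 1 (7 without KL26, 4 without KL39). In model 1, 1 to 2 were lost (2 without KP224), and 0 to 1 were gained in model 2 (1 without WL921). Of all genes, 713 were gained without KL26 and 449 without KL39, against 360 with all libraries. Without KP224, 95 of all genes were lost, against 66. Without WL921, 61 of all genes were gained in model 2, against 17. Fitting the 2 compared groups alone gave 6 calls in the first comparison. Of 299 alternative values for 23 fold changes, 244 kept direction and side of the threshold, 32 lost and 23 gained the threshold, and 0 changed direction. The adjusted p ran from 0.000103 to 0.0938 for Cacna1a, 1.22e-05 to 0.0626 for Cacnb3, 1.24e-05 to 0.106 for Kcnh2, 0.000631 to 0.118 for Cacna1e and 0.000193 to 0.0901 for Cacnb4 between models. In the second table, which was scaled without TMM, 18 of 42 levels moved by more than 1 SD. The causes were not tested. Genes at a few counts, such as Cacna1s and Kcnip3 before leukaemia, are limited by depth. No paired analysis was possible because the groups compared share no mouse number.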
